A study of Mus musculus with 4 samples.

Results

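Transcripts of 8 inhibitory checkpoint receptors were followed in liver ILC1s (group 1 innate lymphoid cells) that carry or lack an intact Cd200r gene. The receptors were Pdcd1, Lag3, Havcr2, Ctla4, Btla, Ceacam1, Lilrb4a and Siglecg, chosen by gene symbol, and all 8 were found among the 18804 genes of the deposited expression table. Immune checkpoint receptors are surface proteins that damp the activation of lymphocytes and myeloid cells when they bind a ligand on a neighbouring cell. Most of them do so through immunoreceptor tyrosine-based inhibitory motifs (ITIMs) in the cytoplasmic tail, which recruit phosphatases such as SHP-1, although CTLA-4, LAG-3 and TIM-3 use other tail motifs. ILC1s are tissue-resident lymphocytes of the liver related to natural killer (NK) cells, and checkpoint receptors on such cells are known for restraining cytokine release and killing.

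The groups were Cd200r knockout mice (replicates 1 and 2) and WT mice (replicates 1 and 3). Both are labelled as liver ILC1s at homeostasis from mice of 5 to 8 weeks of age, and the series asks how CD200R, itself an inhibitory receptor, shapes these cells. The strain, the deleted exons, the antibodies and gates of the sort, and whether a library came from 1 mouse or a pool are not stated in the sources used here. P-values therefore reflect how far these libraries differ from one another, and that variation may be technical. Values are FPKM, a count of fragments set relative to gene length and library depth, which allows levels of different genes to be compared. In bulk RNA, fewer cells of a type and less RNA per cell cannot be told apart.

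The targeted gene was reduced but present. Cd200r1 measured 110.7 and 103.7 FPKM in the knockout libraries, against 161.5 and 173.3 FPKM in the WT libraries (log2 fold change −0.64, SE 0.09, limma adjusted p = 0.00451). Between 38972600 and 41164777 reads were counted per library, as inferred from the steps between low FPKM values, so that 1 FPKM stands for 39.0 to 41.2 reads per kilobase. The libraries carried ILC1 markers at summed levels of 1179 and 1222 FPKM in knockout and 1197 and 1266 FPKM in WT. Of 6 tested members, 1 passed the test as higher and 0 as lower. Cxcr6 made up most of these sums (948.4 and 1018 FPKM in knockout, 1004 and 1067 FPKM in WT). Itga1 was lower in both knockout libraries without passing (42.24 and 32.79 FPKM, against 48.27 and 52.95 FPKM in WT, limma adjusted p = 0.138). The log2 fold change was positive for 2 of the 6. Markers of conventional NK cells summed to 258.1 and 532.4 FPKM in knockout, against 88.1 and 82.4 FPKM in WT, and 8 of 10 rose. Itga2 (1.746 and 1.40 FPKM in knockout, 1.31 and 1.53 FPKM in WT) overlapped and did not pass. The same held for Itgam (3.165 and 6.48 FPKM in knockout, 4.07 and 3.31 FPKM in WT). Ly6c2 was the largest part of these sums (141.9 and 206.1 FPKM in knockout, 48.8 and 41.7 FPKM in WT). Of the 8 that rose, Eomes and Cx3cr1 entered the test through their knockout values, since their WT means lay below 1 FPKM (0.836 and 0.539). Macrophage markers summed to 617.8 and 919.6 FPKM in knockout, against 234.7 and 219.6 FPKM in WT, with 6 of 9 tested members higher and 0 of 12 at 0 in all libraries. Adgre1, among those higher, likewise entered through its knockout values (WT mean 0.8545 FPKM). Lyz2 made up most of the macrophage sums (526.7 and 771.1 FPKM in knockout, 213.3 and 193.0 FPKM in WT). Erythroid markers summed to 12480 and 14020 FPKM in knockout, against 24700 and 26800 FPKM in WT, and 6 of 6 fell. T cell markers summed to 2124 and 2156 FPKM in knockout and to 2373 and 2348 FPKM in WT, with 0 of 6 past the test. Cd3g made up most of these sums (1983 and 1950 FPKM in knockout, 2249 and 2238 FPKM in WT). Cd3d and Cd3e were higher in both knockout libraries without passing (limma adjusted p = 0.0713 and 0.0518). A positive log2 fold change was found for 3 of the 6. Over all genes tested, 2.4% passed as higher in knockout and 0.939% as lower.

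The 8 receptors covered a wide range of levels. Lilrb4a was the most abundant, at 207.4 ± 5.24 FPKM in knockout and 244.0 ± 3.94 FPKM in WT (mean ± SD, n = 2 libraries per group, here and below). Lag3 followed at 57.9 ± 15.3 FPKM in knockout and 75.9 ± 2.33 FPKM in WT, and Pdcd1 at 12.9 ± 3.22 FPKM in knockout and 16.4 ± 0.607 FPKM in WT. These leading receptors did not overlap one another in either genotype. Lilrb4a and Lag3 together made up 92.9% and 94.2% of the summed FPKM of the 8 receptors in the knockout libraries and 94.3% and 93.5% in the WT libraries. Siglecg, Ctla4, Btla, Ceacam1 and Havcr2 all lay near or below 2 FPKM. Among these low receptors the order differed between the genotypes. In knockout, Ctla4 came next after Pdcd1 and overlapped Siglecg, and Ceacam1 overlapped Havcr2 at the bottom. In WT, Siglecg came next after Pdcd1, Ceacam1 overlapped Btla, Btla overlapped Ctla4, and Havcr2 was lowest without overlap.

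**Figure D1:**
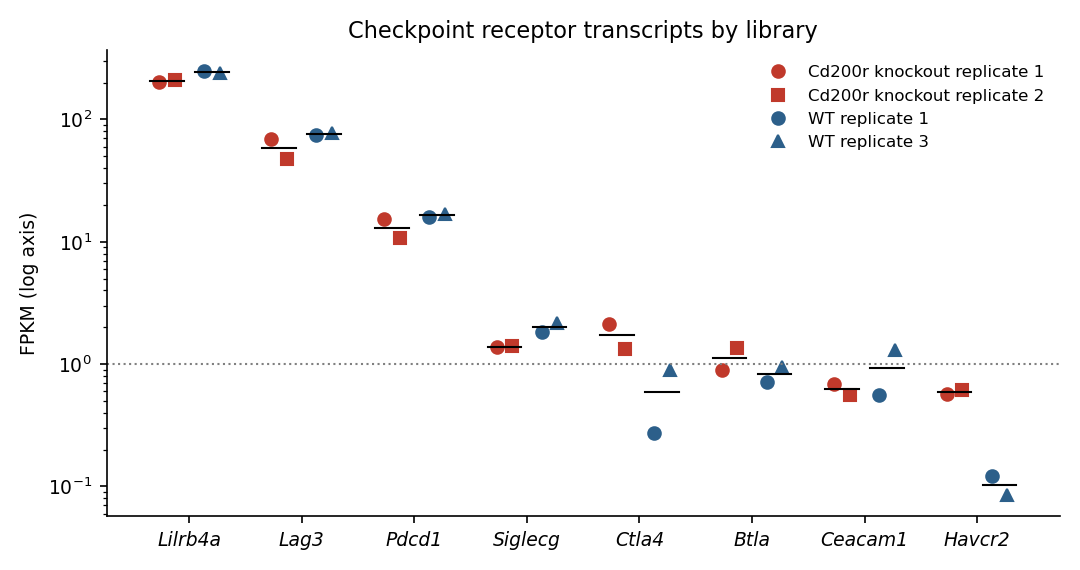
FPKM of the 8 checkpoint receptors (log axis) in each library, knockout in red and WT in blue, with bars at the mean of 2 libraries and a dotted line at 1 FPKM, the level used as filter. Lilrb4a, Lag3 and Pdcd1 stand above the others in all 4 libraries, and Ctla4 and Havcr2 show the knockout points above the WT points.

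Differences between the genotypes were tested on log2(FPKM + 1) with limma for the 9476 genes that averaged 1 FPKM or more over the libraries, and p-values were adjusted over all of them. Of the 8 receptors, 5 passed this filter (Pdcd1, Lag3, Ctla4, Lilrb4a and Siglecg) and 3 did not (Havcr2, Btla and Ceacam1). None passed at an adjusted p of 0.05 (0 of 5), where 3.33% of all tested genes did (2.4% higher and 0.939% lower in knockout). At an unadjusted p under 0.05, limma gave 3 of the 5, namely Ctla4, Lag3 and Lilrb4a, where 15.5% of all tested genes did. The knockout and WT libraries did not overlap for 6 of the 8 receptors, 2 higher and 4 lower in knockout, against 37.3% of all genes above 0 (18.9% higher and 18.4% lower). For the 5 tested receptors this was 5 of 5, against 46.0% of all tested genes. The receptors were chosen with earlier results of these data known, so these counts are no support for a difference particular to them. Because the filter uses the mean of all libraries, Ctla4 passed it through its knockout values. With only 2 libraries per group, an exact permutation test cannot give a two-sided p below 0.333, and that was its value for each of those 6 receptors.

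**Figure D2:**
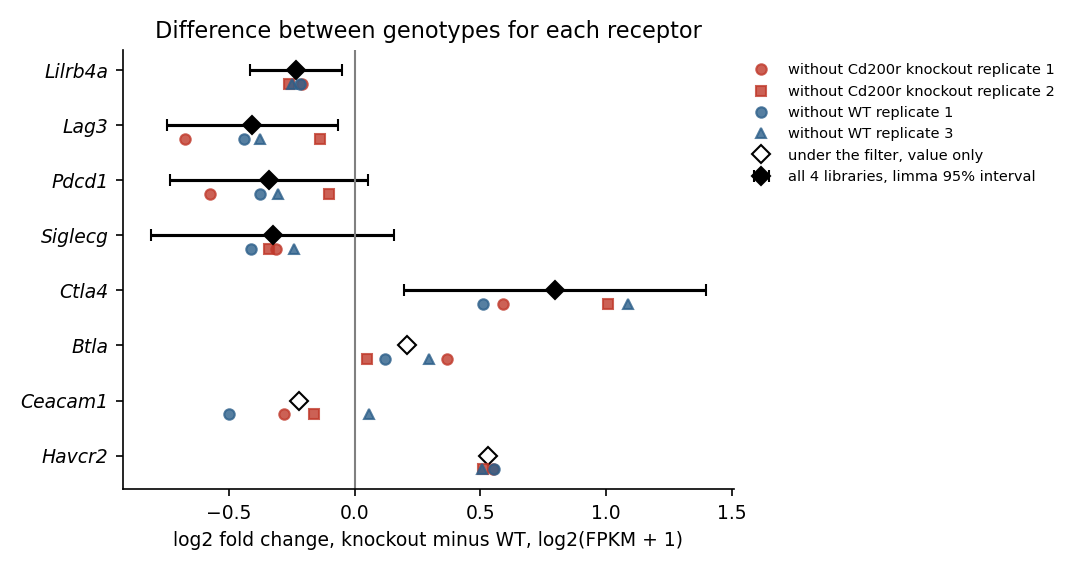
Log2 fold change of each receptor (knockout minus WT, from log2(FPKM + 1) values), with the limma 95% interval (black) for the 5 receptors tested and an open diamond for the 3 under the filter. Smaller symbols give the value with 1 library left out; those of Lag3 and Pdcd1 lie farthest apart between the omissions of knockout replicates 1 and 2.

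Lilrb4a (Entrez 14728, GRCm38 chromosome 10, 51490898 to 51496613) encodes gp49B, an ITIM-bearing receptor of the leukocyte immunoglobulin-like receptor family found on mast cells, myeloid cells and NK cells. It lies beside Lilrb4b (Entrez 14727, chromosome 10, 51480612 to 51486329), which encodes the closely related gp49A. Because the coding sequences of these neighbours are 96.0% identical (874 of 910 aligned bases in GENCODE release M21), reads of one can resemble the other. A stretch of 100 bases from each is shown to let the eye judge how far reads can tell them apart. Capitals mark the 5 bases at which they differ, and both stretches are on the plus strand of GRCm38, at chr10:51491464-51491563 for Lilrb4a and chr10:51481170-51481269 for Lilrb4b.
Lilrb4a: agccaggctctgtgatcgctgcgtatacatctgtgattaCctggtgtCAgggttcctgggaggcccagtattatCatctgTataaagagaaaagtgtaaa
Lilrb4b: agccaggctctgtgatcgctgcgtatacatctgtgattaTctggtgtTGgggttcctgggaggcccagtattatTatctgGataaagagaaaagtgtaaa

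The longest run without any difference was 126 bases. Of the 100-base windows of the Lilrb4a coding sequence, 41 of 909 (4.51%) occurred unchanged in Lilrb4b, and of the 150-base windows 0 of 859 did. The read length and the treatment of reads that match both genes are not stated in the sources used here, so the split between the genes is uncertain. The windows count exact matches in coding bases only (1008 and 912), so they do not bound this uncertainty. The recovered reads imply counted lengths of 1531 bases for Lilrb4a and 1430 bases for Lilrb4b. The ends of the coding sequences, which encode the end of each protein, are shown because they differ in matches to the ITIM pattern. They run from the same coding position to the stop codon, plus strand, at chr10:51495994-51496244 (with an intron removed) for Lilrb4a and chr10:51485713-51485760 for Lilrb4b, with the codons of an ITIM in capitals.
Lilrb4a: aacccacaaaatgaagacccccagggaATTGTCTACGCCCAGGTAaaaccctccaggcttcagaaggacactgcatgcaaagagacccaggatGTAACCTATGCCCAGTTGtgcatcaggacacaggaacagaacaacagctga
Lilrb4b: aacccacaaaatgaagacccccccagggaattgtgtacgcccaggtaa

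The motif searched in the translated sequence was I, L, V or S, any residue, Y, any 2 residues, then I, L or V. This end of Lilrb4a held 2 matches and that of Lilrb4b held 0. The whole coding sequences, of 1008 and 912 bases, held 3 matches in Lilrb4a and 1 in Lilrb4b, so that each has 1 match outside the stretch shown. A match is a description of the letters and not a test of function.

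Lilrb4a stood at 203.7 and 211.1 FPKM in the knockout libraries, from 12835 and 12762 reads, against 246.8 and 241.2 FPKM in the WT libraries (14868 and 14393 reads). Both knockout libraries were lower than both WT libraries, with replicates close together in each genotype. The mean was 1.18-fold lower in knockout (log2 fold change −0.23, SE 0.08, 95% interval −0.42 to −0.05), which did not pass after adjustment (limma adjusted p = 0.193). Lilrb4b measured 92.3 and 98.9 FPKM in the knockout libraries, against 148.1 and 149.2 FPKM in the WT libraries. It fell 1.56-fold in knockout (log2 fold change −0.63, SE 0.09, limma adjusted p = 0.00451), and its groups stood clear of each other. It did not pass with no filter (adjusted p = 0.302) or without the mean-variance trend (adjusted p = 0.106). The ratio of Lilrb4a to Lilrb4b was 2.21 and 2.13 in knockout and 1.67 and 1.62 in WT, a difference of 0.40 on the log2 scale (exact permutation p = 0.333, the smallest possible). The summed level of both genes was 295.9 and 310.0 FPKM in knockout, against 394.9 and 390.5 FPKM in WT.

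**Figure D3:**
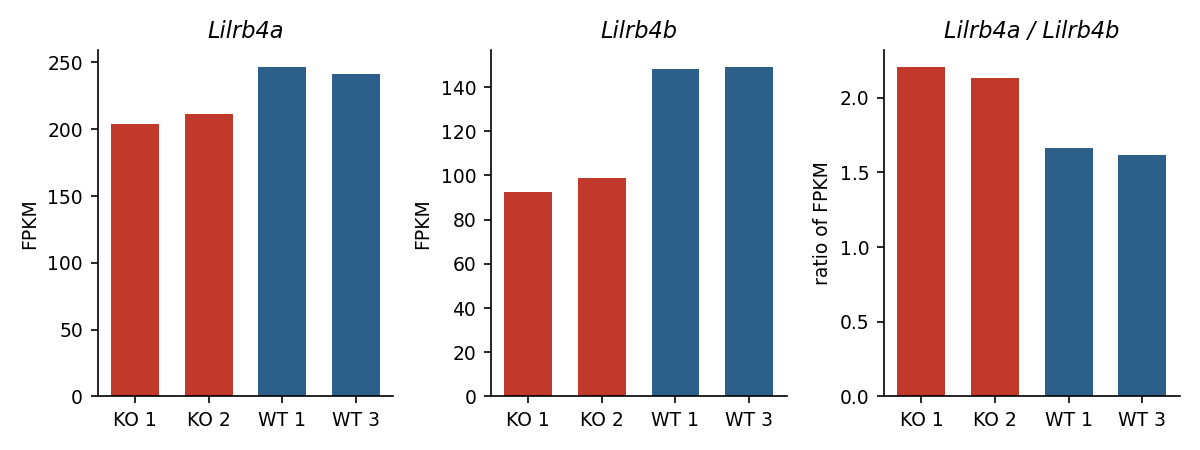
FPKM of Lilrb4a and Lilrb4b and the ratio between them in each library, knockout (KO, red) left of WT (blue), with bars from 0 and no error bars since each bar is 1 library. Both genes are lower in the knockout libraries, and the ratio is above 2 in both of them and below 1.7 in both WT libraries.

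Pdcd1 (Entrez 18566, chromosome 1, 94038305 to 94052553) encodes PD-1, the receptor for PD-L1 and PD-L2. It measured 15.2 and 10.7 FPKM in the knockout libraries, from 1212 and 815 reads, against 16.0 and 16.9 FPKM in the WT libraries (1217 and 1270 reads). Both knockout values lay below the WT values, replicate 1 only narrowly so. The log2 fold change was −0.34 (SE 0.18, 95% interval −0.73 to 0.05, limma adjusted p = 0.405). It was −0.10 without knockout replicate 2 and −0.58 without knockout replicate 1, and neither passed (limma adjusted p = 0.879 and 0.0677).

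Lag3 (Entrez 16768, chromosome 6, 124904359 to 124912434) encodes LAG-3, a CD4-related receptor that binds MHC class II. It measured 68.8 and 47.1 FPKM in the knockout libraries, from 5669 and 3727 reads, against 74.2 and 77.5 FPKM in the WT libraries (5850 and 6051 reads). Both knockout libraries were lower, and they differed from each other far more than the WT libraries did. The mean was 1.31-fold lower in knockout (log2 fold change −0.41, SE 0.15, 95% interval −0.75 to −0.07, limma adjusted p = 0.222). Without knockout replicate 1 the log2 fold change was −0.68 and passed (limma adjusted p = 0.00401), and without knockout replicate 2 it was −0.14 and did not (adjusted p = 0.694). Each of these fits has 1 knockout library, which is assumed to vary like the WT libraries, so the pass of Lag3 rests on the single value of knockout replicate 2. Without knockout replicate 1, 2.35% of all tested genes passed as lower in knockout.

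Lag3 and Pdcd1 stood in a similar ratio in the 4 libraries. The ratio of Lag3 to Pdcd1 was 4.51 and 4.41 in knockout and 4.64 and 4.60 in WT. Both knockout ratios lay slightly below both WT ratios (exact permutation p = 0.333, the smallest possible). In knockout replicate 2, Lag3 stood at 0.685 and Pdcd1 at 0.701 of the lowest other library. A value of that library below 0.75 of the next lowest was found in 5.39% of tested genes. The share was 2.75% for knockout replicate 1, 2.81% for WT replicate 1 and 2.73% for WT replicate 3. The cut of 0.75 was not part of the planned tests and lies just above the Lag3 and Pdcd1 values, so these shares are a description only. Knockout replicate 2 also had the higher summed levels of macrophage and conventional NK cell markers given above, and their part in these values was not tested.

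Siglecg (Entrez 243958, chromosome 7, 43408192 to 43418349) encodes Siglec-G, a sialic acid-binding receptor with ITIM-type motifs best known from B cells. It measured 1.37 and 1.42 FPKM in the knockout libraries, from 156 and 155 reads, against 1.82 and 2.19 FPKM in the WT libraries (199 and 236 reads). The knockout libraries nearly coincided and lay below both WT libraries. The mean was 1.44-fold lower in knockout, which did not pass (log2 fold change −0.33, SE 0.22, 95% interval −0.81 to 0.16, limma adjusted p = 0.527). B cell markers summed to 49.2 and 60.1 FPKM in knockout, against 56.1 and 76.5 FPKM in WT, with 0 of 5 tested members past the test, and their part in the Siglecg values was not tested.

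Ctla4 (Entrez 12477, chromosome 1, 60909025 to 60915832) encodes CTLA-4, which competes with the costimulatory receptor CD28 for CD80 and CD86. It measured 2.13 and 1.34 FPKM in the knockout libraries, against 0.274 and 0.901 FPKM in the WT libraries. Both knockout libraries were higher, but replicates differed within each genotype, 1.59-fold in knockout and 3.29-fold in WT. The reads behind these values numbered 187 and 113 in knockout and 23 and 75 in WT. Their exact Poisson 95% intervals were 161.2 to 215.8 and 93.1 to 135.9 reads in knockout, and 14.6 to 34.5 and 59.0 to 94.0 reads in WT, so that the WT libraries differed beyond counting error. These intervals cover counting error only, since amplified reads without molecular identifiers are not independent molecules. The mean was 2.95-fold higher in knockout (log2 fold change 0.80, SE 0.27, 95% interval 0.20 to 1.40), which did not pass after adjustment (limma adjusted p = 0.173). Leaving out WT replicate 1, the lowest library, gave a log2 fold change of 0.51 (adjusted p = 0.746), and leaving out WT replicate 3 gave 1.09 (adjusted p = 0.0644).

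Ctla4 was the only tested receptor that spanned at least 1 log2 unit over the 4 libraries (1.30). Over the 6088 genes compared, each averaging 5 FPKM or more, the 3 with the smallest Euclidean distance to its centred log2 profile were Ces3a (0.14), Rgs10 (0.22) and Prxl2b (0.30). The distance is over 4 libraries and describes likeness of pattern only.

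Havcr2 (Entrez 171285, chromosome 11, 46454931 to 46481255) encodes TIM-3, found on exhausted T cells, NK cells and macrophages. It measured 0.571 and 0.613 FPKM in the knockout libraries, from 64 and 66 reads, against 0.121 and 0.0848 FPKM in the WT libraries (13 and 9 reads). The knockout libraries lay close together and well above the WT libraries. The exact Poisson 95% intervals were 49.3 to 81.7 and 51.0 to 84.0 reads in knockout, and 6.92 to 22.2 and 4.12 to 17.1 reads in WT. By group means Havcr2 was 5.75-fold higher in knockout, the widest ratio of means among the 8 receptors, but it lay under the filter. Its log2 fold change on the log2(FPKM + 1) scale was 0.53, and 1.77 with a pseudocount of 0.1. With the filter lowered to 0.3 FPKM, an alternative chosen after seeing the data that lets all 8 receptors be tested, Havcr2 did not pass (SE 0.19, limma adjusted p = 0.229). It entered that fit through its knockout values, since its WT mean lay below 0.3 FPKM. With no filter its limma adjusted p was 0.302, in a fit in which 0 of 18155 genes passed and 1898 had an unadjusted p under 0.05. Macrophages also transcribe Havcr2, and the summed macrophage markers were higher in the same libraries. Most of that sum was Lyz2, at 648.9 ± 172.8 FPKM in knockout and 203.1 ± 14.4 FPKM in WT. The log2 fold change was positive for 8 of 9 tested macrophage markers. Of these, Clec4f (3.72 and 12.43 FPKM in knockout, 2.04 and 4.37 FPKM in WT) overlapped between the genotypes and did not pass. The same held for Vsig4 (2.59 and 8.475 FPKM in knockout, 2.91 and 1.66 FPKM in WT). Cd5l also overlapped (3.11 FPKM in knockout and 3.15 FPKM in WT), and Marco, under the filter, was lower (0.243 FPKM in knockout and 0.457 FPKM in WT). The part of macrophages in the Havcr2 values was not tested.

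Btla (Entrez 208154, chromosome 16, 45223705 to 45252895) encodes a receptor for HVEM, a member of the tumour necrosis factor receptor superfamily. It measured 0.888 and 1.36 FPKM in the knockout libraries, from 178 and 261 reads, against 0.72 and 0.938 FPKM in the WT libraries (138 and 178 reads). The groups overlapped, as knockout replicate 1 lay below WT replicate 3. Its mean of all libraries lay just under the filter, and at the lower filter of 0.3 FPKM its log2 fold change was 0.21 (SE 0.22, limma adjusted p = 0.721).

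Ceacam1 (Entrez 26365, chromosome 7, 25461702 to 25477647) encodes an ITIM-bearing adhesion molecule that binds itself on other cells. It measured 0.692 and 0.559 FPKM in the knockout libraries, from 107 and 83 reads, against 0.561 and 1.30 FPKM in the WT libraries (83 and 190 reads). The groups overlapped, and WT replicate 3 alone stood above the rest. The log2 fold change was −0.22 (SE 0.24, limma adjusted p = 0.732 at the lower filter), and 0.06 without WT replicate 3. Its paralog Ceacam2, 90.5% identical over the aligned coding bases, was at most 0.00671 FPKM in any library.

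**Figure D4:**
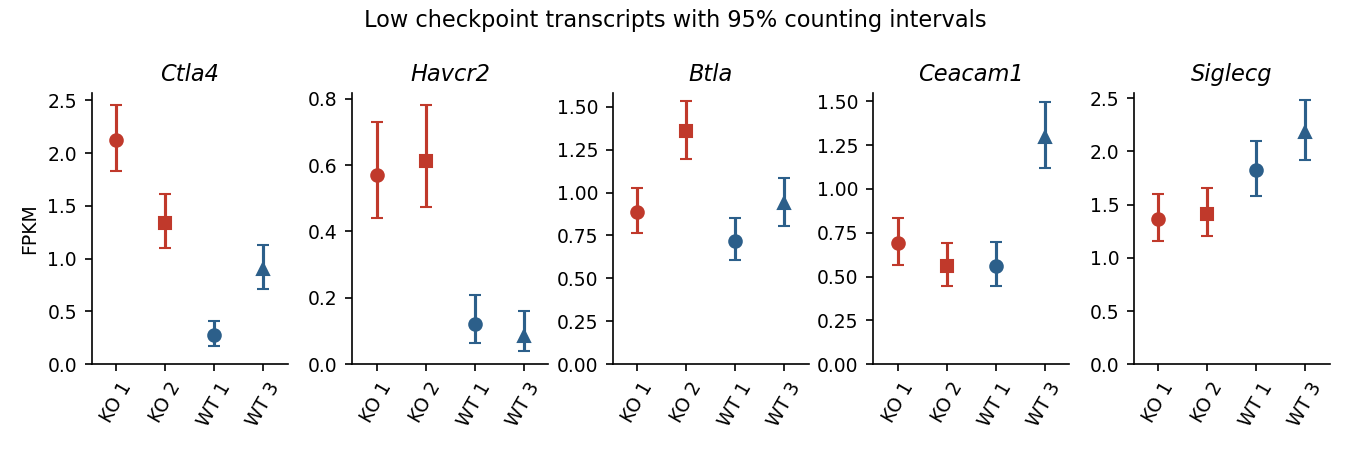
FPKM of the 5 low receptors in each library, knockout (KO) left of WT, with exact Poisson 95% intervals of the reads behind each value, which cover counting error only. Both knockout libraries exceed both WT libraries for Ctla4 and Havcr2, lie below them for Siglecg, and overlap with them for Btla and Ceacam1.

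Among 14 tested ligands of these receptors, 4 rose, 1 fell and 9 did not pass, with a median log2 fold change of −0.00, as over all genes tested (0.00). Of all genes tested, 2.4% passed as higher in knockout and 0.939% as lower. Those that rose were MHC class II chains, the ligand of LAG-3, and galectin-3, another LAG-3 ligand. The chains belong to the same kind of ligand, so the counts do not stand for separate ligands. The list was chosen with earlier results of these data known, so its counts are no support for a difference particular to ligands. H2-Ab1 measured 272.7 ± 29.4 FPKM in knockout and 107.3 ± 23.9 FPKM in WT (log2 fold change 1.35, SE 0.14, limma adjusted p = 0.000566). H2-Aa and H2-Eb1 had log2 fold changes of 1.16 (SE 0.12) and 1.08 (SE 0.11). Lgals3 measured 83.2 ± 14.9 FPKM in knockout and 45.0 ± 0.426 FPKM in WT (0.86, SE 0.13, limma adjusted p = 0.0048). MHC class II and galectin-3 are abundant in macrophages, whose summed markers were higher in the same libraries, and their part was not tested.

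The ligand that fell was Cd24a, which encodes the Siglec-G ligand CD24. It measured 2.17 and 3.60 FPKM in the knockout libraries, against 8.57 and 8.44 FPKM in the WT libraries (log2 fold change −1.32, SE 0.22, limma adjusted p = 0.00952). CD24 is also abundant on erythroid precursors, and erythroid markers fell in the same libraries, but their part in the Cd24a values was not tested. The ligands of PD-1, named here for that role after their values were seen, did not pass. Cd274 measured 12.8 FPKM in knockout and 14.3 FPKM in WT, and Pdcd1lg2 8.84 FPKM in knockout and 11.9 FPKM in WT (limma adjusted p = 0.772 and 0.348). Likewise Cd86, a CTLA-4 ligand, measured 9.96 FPKM in knockout and 5.65 FPKM in WT (adjusted p = 0.0689), and Tnfrsf14, encoding HVEM, 2.62 FPKM in knockout and 3.77 FPKM in WT (adjusted p = 0.445). The log2 fold change of Cd86 was 0.71 with all libraries, 0.85 without knockout replicate 1 and 0.57 without knockout replicate 2. It was 0.70 without WT replicate 1 and 0.73 without WT replicate 3.

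None of 12 tested signalling and traffic partners of the receptors passed in limma (0 of 12), where 3.33% of all tested genes did. The median log2 fold change of the partners was −0.05. An unadjusted limma p under 0.05 was found for 1 of the 12, against 15.5% of all tested genes. The most abundant, Lck, a Src family kinase, measured 1137 ± 18.4 FPKM in knockout and 1097 ± 55.3 FPKM in WT. Ptpn6, encoding SHP-1 and singled out after its value was seen as that 1 gene, measured 236.7 FPKM in knockout and 269.9 FPKM in WT (log2 fold change −0.19, SE 0.08, limma adjusted p = 0.316).

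Of 14 tested inhibitory receptors outside the 8, 3 rose, 1 fell and 10 did not pass, with a median of 0.19. The shares over all tested genes were 2.4% higher and 0.939% lower. The collagen receptor Lair1 measured 2.71 ± 0.512 FPKM in knockout and 0.493 ± 0.27 FPKM in WT (log2 fold change 1.32, SE 0.24, limma adjusted p = 0.0139), and missed the threshold when knockout replicate 2 was left out (adjusted p = 0.0749). Cd300a, a phospholipid receptor, had 1.26 (SE 0.25) and missed the threshold when either knockout replicate 1 or WT replicate 1 was left out (adjusted p = 0.0753 and 0.0733). Klrg1, a cadherin receptor of mature NK cells, measured 31.4 and 73.2 FPKM in the knockout libraries, against a mean of 18.8 ± 1.05 FPKM in WT (1.31, SE 0.29, limma adjusted p = 0.0341), and had 0.71 without knockout replicate 2. Pvrig, a receptor for nectin-2, fell to 67.0 ± 1.98 FPKM in knockout, against 90.7 ± 3.77 FPKM in WT (−0.43, SE 0.10, limma adjusted p = 0.0405). Its limma adjusted p was 0.0546 without knockout replicate 1, 0.293 without WT replicate 1 and 0.106 without WT replicate 3. Lair1 and Cd300a entered the test through their knockout values, since their WT means lay below 1 FPKM, so their rise is no support for the count. Cd300lf and Sirpa, which did not pass, entered in the same way (WT means 0.743 and 0.536 FPKM, log2 fold changes 0.91 and 0.67). The median of 0.19 is therefore no support for a rise of these receptors either. Klrg1 was highest in knockout replicate 2, as were the summed markers of conventional NK cells (532.4 FPKM there, 258.1 FPKM in knockout replicate 1, and 88.1 and 82.4 FPKM in WT). Myeloid cells also transcribe Lair1 and Cd300a, and the summed macrophage markers were higher in the same libraries (617.8 and 919.6 FPKM in knockout, against 234.7 and 219.6 FPKM in WT). The part of these cells in the 3 rises was not tested.

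Among 9 costimulatory receptors 1 rose and 8 did not pass, where 2.4% of all tested genes passed as higher and 0.939% as lower. The one that rose was Crtam, an adhesion receptor of activated lymphocytes, at 8.74 ± 0.172 FPKM in knockout and 2.91 ± 1.28 FPKM in WT (log2 fold change 1.36, SE 0.24, limma adjusted p = 0.0117). Among 10 tested transcription factors linked to checkpoint genes 1 rose and 9 did not pass. It was Nr4a1, an early target of antigen receptor signalling, at 14.0 ± 1.09 FPKM in knockout and 3.38 ± 0.763 FPKM in WT (1.79, SE 0.19, limma adjusted p = 0.000858). Of 15 relatives of the receptors by family, 3 passed the filter and Lilrb4b, described above, was the one past the test.

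**Figure D5:**
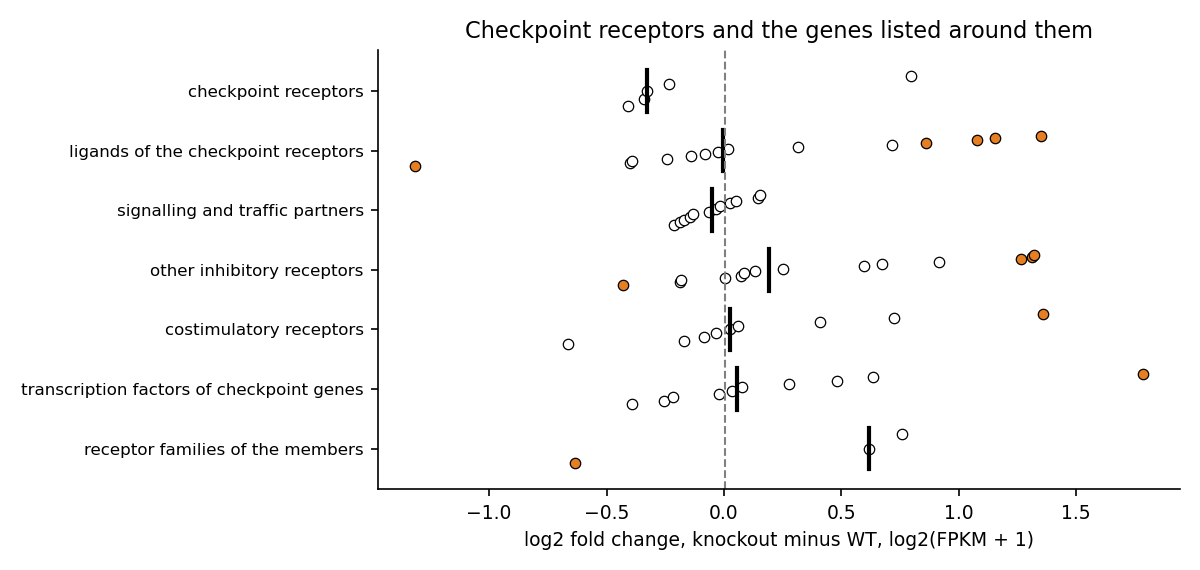
Log2 fold changes (knockout minus WT, from log2(FPKM + 1) values) of the tested checkpoint receptors and of the genes listed around them, with each list's median as a black bar and that of all genes tested as a dashed line. Filled points passed limma at an adjusted p of 0.05, and the checkpoint receptors hold 0 of these.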

How the data were processed

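The authors deposited FPKM values per gene for 4 RNA-seq libraries. Per the labels' protocols, RNA was extracted with TRIzol, amplified with a full-length kit and built into libraries with a transposase kit, which does not mark strand, so overlapping genes transcribed in opposite directions share reads. The tools listed per the submitters' processing notes include fastp, HISAT2, HTSeq, R 3.2.0 and DESeq2, and the build was mm10. No scaling between libraries is stated.

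The deposited table used here gives FPKM, so no count test was run. Depth and reads were recovered from the steps of FPKM. Between 16 and 20 low values of single-exon genes per library, out of 180 to 209, came out within 0.001 of a whole read, as did each receptor's values. Values were tested as log2(FPKM + 1) in genes averaging 1 FPKM or more, using a two-sided limma 3.58.1 model with trend in R 4.3.3. The model was first run on data simulated from its own fitted variances, which cannot check its variance assumptions. P-values were Benjamini-Hochberg adjusted with a threshold of 0.05. The 14 alternatives changed pseudocount, filter, scaling, variance model or libraries.

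The receptors and the gene lists were chosen with earlier results of these data known. The counts in the lists are therefore no support for a difference particular to a list. Named genes were the 8 receptors, up to 4 called genes per list by smallest p, otherwise the most abundant, the most abundant marker, and the 3 nearest patterns. Cd200r1 (the targeted gene), Cd24a, Ptpn6, Cd274, Pdcd1lg2, Cd86 and Tnfrsf14 lay outside this rule and were named after their values were seen. Genes absent from the table (Siglec15, Foxp3, Trac and others) were not analysed here.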

Additional observations from a re-analysis of the deposited data

How the results depend on the processing

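The number of genes past the test was 316, against 0 with no filter and 70 without the mean-variance trend. It ranged from 256 to 574 when 1 library was left out, the highest being without knockout replicate 1. The number of checkpoint receptors past the test was 0, and ranged from 0 to 1 when 1 library was left out, the 1 being Lag3 without knockout replicate 1. A fit without 1 library leaves its group with 1, assumed to vary like the other group. It was 0 under the other 13 alternatives. No paired analysis was possible because the groups share fewer than 2 replicate numbers.

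Over the alternatives, the adjusted p of Ctla4 ranged from 0.0644 to 0.746, of Lag3 from 0.00401 to 0.694, of Lilrb4a from 0.084 to 0.751, of Pdcd1 from 0.0677 to 0.879 and of Siglecg from 0.371 to 0.86. The log2 fold change of Havcr2 was 1.77 with a pseudocount of 0.1, 0.13 with a pseudocount of 5 and 0.84 with TPM. Directions turned for the receptor Ceacam1, under the filter, without WT replicate 3 (0.06, in a range from −0.50), for the kinase Lck with quantile normalization (−0.0021), for the marker genes Nkg7 without knockout replicate 2 (−0.0094 to 0.1972 over the libraries left out) and Cd79b without knockout replicate 1 (0.07) or WT replicate 3 (0.19, in a range from −0.2175) and the ligand Cd274 without WT replicate 1 (0.0514, in a range from −0.33), none of which passed a test. Of 16 named genes past the test, 16 did not pass with no filter, 12 without the trend, 2 with the filter at 0.3 FPKM added after seeing the data (Klrg1 and Pvrig, adjusted p = 0.066 and 0.0568) and 1 with quantile normalization (Klrg1, 0.0675). The cause was not tested. Depth limits Havcr2 most, with 9 and 13 reads in the WT libraries.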
